A study of Rattus norvegicus with 30 samples.

Results

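Fat cell (adipocyte) genes were followed across rat plantaris tendons in 8 members, Adipoq, Plin1, Plin4, Fabp4, Cfd, Cidec, Lipe and Pparg. The members were chosen by name from the 13124 genes with counts, all 8 were found, and all 8 passed the filter on low counts that left 12558 genes. A white fat cell stores triglyceride in a large lipid droplet, coats the droplet with perilipins and CIDE proteins, breaks the store down by lipolysis, and secretes hormones into the blood. The nuclear receptor encoded by Pparg drives the formation of fat cells and keeps many of their genes active. In and around tendon, fat cells lie mainly in the loose connective tissue that surrounds the collagen bundles.

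The tissue was the plantaris tendon of male Sprague Dawley rats 3 months of age, cut across and immediately sutured (tenotomy and repair). GSK2894631A, a small molecule inhibitor of hematopoietic prostaglandin D synthase (HPGDS), was given by mouth 2 times a day at 2 or 6 mg/kg, and rats at 0 mg/kg went through the same dosing without it. Tendons were collected at 7 days (7D) with 5, 4 and 3 tendons at 0, 2 and 6 mg/kg, or at 21 days (21D) with 5 tendons at each dose, and 3 control tendons came from rats with neither surgery nor compound. Each library was bulk RNA from the tendon of 1 rat, so that more fat cells and more RNA per fat cell cannot be told apart in any result here.

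Levels are given as CPM, counts scaled to the same total in each library, after TMM scaling, a factor per library that sets the bulk of genes level between libraries. Groups were compared by edgeR's quasi-likelihood test in 1 model of all 30 tendons, and a gene was called changed at a Benjamini-Hochberg adjusted p under 0.05 over the 12558 genes. Depth was 12405741 to 49909374 counts, and 3 libraries, 7D 2 mg/kg replicates 4 and 5 and 7D 6 mg/kg replicate 4, held under 20000000 counts. A list of 20 skeletal muscle genes, 17 of them measured, was strongest without surgery, with a share of counts between 16.4 and 24.7%. That share was between 0.157 and 1.11% at 7D without compound, between 0.0129 and 0.0161% in the 7 treated tendons at 7D, and between 0.0656 and 8.32% at 21D. TMM factors were 0.599 to 0.788 in control tendons and 0.950 to 1.095 in repaired tendons. All comparisons with control tendons use the same 3 libraries.

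The members that define fat cells were present in every tendon, with at least 519 counts of Adipoq, 124 of Plin1 and 71 of Cidec, so no group mean rested on a handful of reads. Adipoq (ENSRNOG00000001821, chromosome 11 in rn6) encodes adiponectin and Cfd (ENSRNOG00000033564, chromosome 7) encodes adipsin, both proteins that fat cells secrete. Plin1 (ENSRNOG00000015086, chromosome 1), Plin4 (ENSRNOG00000047046, chromosome 9) and Cidec (ENSRNOG00000009153, chromosome 4) encode proteins of the lipid droplet surface. Lipe (ENSRNOG00000020546, chromosome 1) encodes hormone-sensitive lipase, Fabp4 (ENSRNOG00000010805, chromosome 2) a fatty acid carrier that is also made by macrophages and by endothelial cells, and Pparg (ENSRNOG00000008839, chromosome 4) the master regulator named above.

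**Figure D1:**
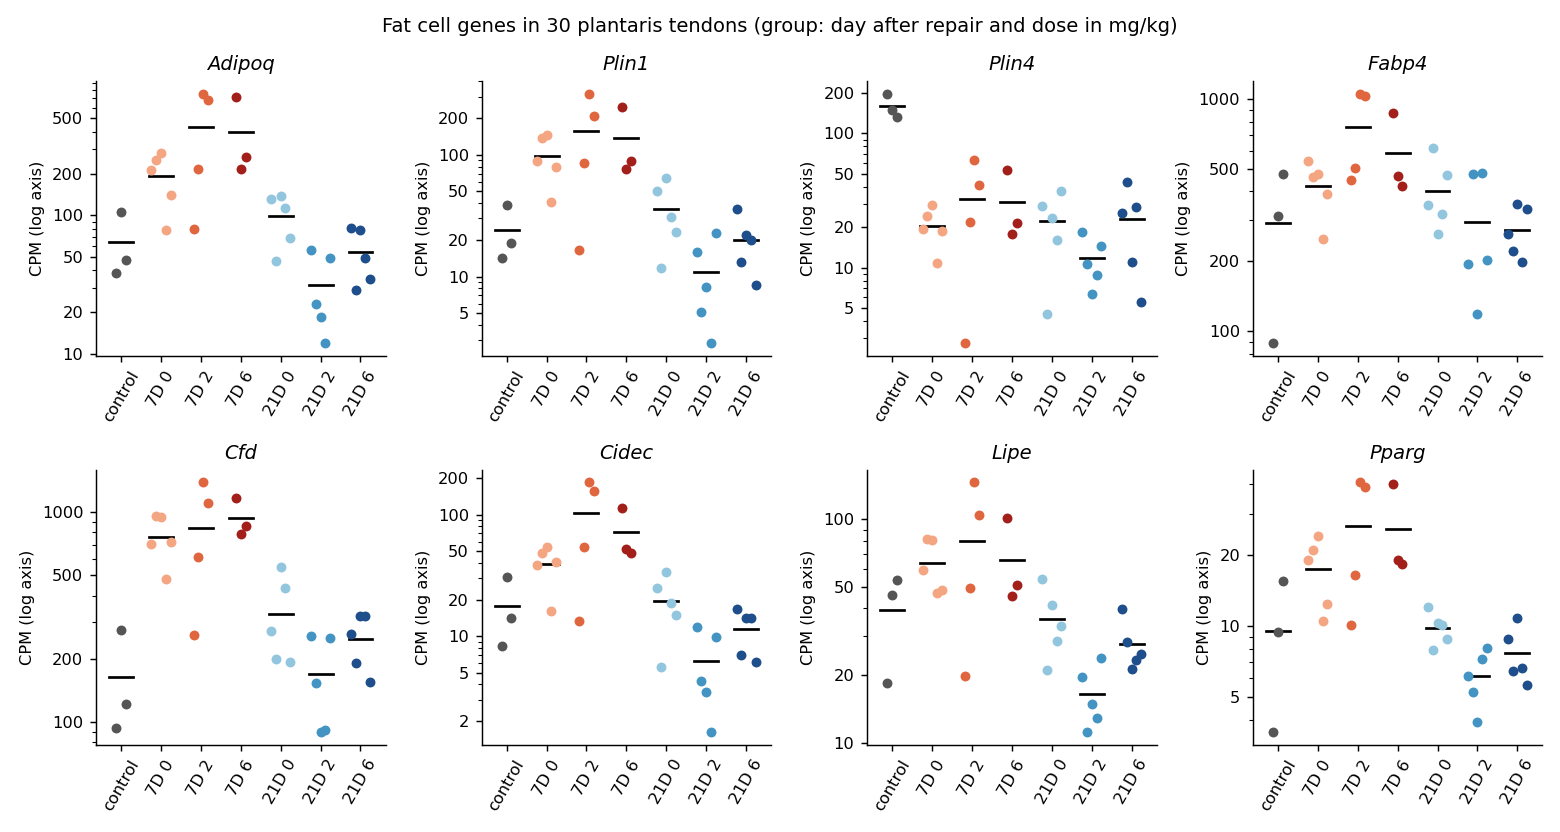
CPM after TMM scaling (vertical, log axis) of the 8 fat cell genes in each of the 30 tendons, by group (horizontal: day after repair and dose in mg/kg). Points are tendons and bars are group means. Plin4 is highest in the 3 control tendons (134 to 198 CPM), while the means of the other 7 genes are highest in the treated 7D groups.

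At 7 days Adipoq, Cfd and Plin1 were higher than in control tendons, and Plin4 was lower. Adipoq was at 38.3, 105 and 47.4 CPM in the 3 control tendons. It was at 213, 250.5, 283, 78.5 and 139.9 CPM in the 5 tendons at 7D 0 mg/kg. One of these 5 tendons was below the highest control tendon, so the groups overlapped. The mean rose from 63.6 ± 36.3 (SD, n = 3) to 193 ± 83.4 CPM (SD, n = 5), a log2 fold change of 1.60 (SE 0.65, adjusted p = 0.0309). Plin1, whose protein guards the droplet against lipases, was at 14.2, 38.8 and 19.0 CPM in control tendons and at 88.4, 138, 145, 41.3 and 79.3 CPM at 7D 0 mg/kg. The Plin1 groups did not overlap, and the log2 fold change was 2.03 (SE 0.77, adjusted p = 0.0208). Cfd was at 93.2, 275 and 122 CPM in control tendons and at 702, 959, 943, 481 and 721 CPM at 7D 0 mg/kg. Every 7D 0 mg/kg tendon was above every control tendon, and the log2 fold change was 2.22 (SE 0.51, adjusted p = 0.000407).

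In 7D 0 mg/kg tendons, then, 3 of the 8 members rose, near the 35.8% of all genes tested that did, and 1 fell, where 35.6% did. The median log2 fold change of the members was 1.03, and that of all genes was 0.05. The members that did not pass were Pparg (log2 fold change 0.89, 95% interval 0.00 to 1.77, adjusted p = 0.0668), Cidec (1.17, -0.25 to 2.59, adjusted p = 0.133), Lipe (0.70, -0.23 to 1.63, adjusted p = 0.170) and Fabp4 (0.53, -0.42 to 1.49, adjusted p = 0.308). Without control replicate 2, the control tendon with the lowest Adipoq, the number called fell from 4 to 2. The Adipoq call (log2 fold change 1.27 to 2.20 over the fits that leave out 1 tendon) was lost without control replicate 2 or 4 or 7D 0 mg/kg replicate 2 or 3 (highest adjusted p = 0.139), and the Plin1 call without control replicate 2 or 4 (highest adjusted p = 0.0969).

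The same members reached higher means in the treated 7D tendons, with a wide spread between tendons. At 7D 2 mg/kg, Adipoq was at 79.3, 215, 757 and 681 CPM in replicates 2 to 5, and Plin1 was at 16.7, 85.9, 318 and 207 CPM. Cidec, whose protein fuses droplets into larger ones, was at 13.3, 54.1, 185 and 158 CPM in the same order, against 8.26, 30.5 and 14.0 CPM in control tendons. Replicates 4 and 5 were the highest for each of the 8 members, and replicate 2 lay within the range of the control tendons for Adipoq, Plin1 and Cidec. Against control tendons, 6 members rose (35.8% of all genes did) and 1 fell (34.0% did), with a median log2 fold change of 1.93. The rises ran from 1.38 (SE 0.49, adjusted p = 0.0161) for Fabp4 to 2.77 (SE 0.71, adjusted p = 0.00125) for Adipoq. The calls of Fabp4 and Pparg were lost without control replicate 2 (adjusted p = 0.112 and 0.0541) and in a fit of only the groups compared (adjusted p = 0.0802 and 0.0801). Lipe, the lipase, had a log2 fold change of 1.03 and did not pass (adjusted p = 0.0553).

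Replicates 4 and 5 of that group were also 2 of the 3 libraries with the lowest depth, and the part of depth in their high values was not tested. Without the 3 libraries under 20000000 counts, the number of members called at 7D 2 mg/kg dropped from 7 to 2, which were Cfd (log2 fold change 1.41, adjusted p = 0.0246) and Plin4. In that smaller fit Adipoq had a log2 fold change of 1.21 (adjusted p = 0.114) and Plin1 of 1.09 (adjusted p = 0.238). The share of all genes called in it is not given here, so the drop is not read as particular to the members. The third library under 20000000 counts, 7D 6 mg/kg replicate 4, was the lowest of its group for Adipoq, Plin1, Plin4, Cfd and Lipe. For Fabp4, Cidec and Pparg it lay between the other tendons of its group.

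At 7D 6 mg/kg, Adipoq was at 718, 216 and 265 CPM in replicates 1, 4 and 5, Plin1 at 245, 76.9 and 88.1 CPM, and Cfd at 1164, 788 and 862 CPM. All 3 tendons were above all 3 control tendons for Adipoq, Plin1, Cfd, Cidec and Pparg. The share of all genes that separated in this way was not counted. Those 5 members rose (34.1% of all genes did) and Plin4 fell (33.8% did), with a median log2 fold change of 1.74. The log2 fold change was 2.65 for Adipoq (SE 0.72, adjusted p = 0.00234), 2.52 for Cfd (SE 0.54, adjusted p = 0.000251) and 1.46 for Pparg (SE 0.47, adjusted p = 0.00843), whose call was lost in a fit of only the groups compared (adjusted p = 0.0723). The number called fell from 6 to 3 without 7D 6 mg/kg replicate 1, the tendon with the highest values, and to 3 without control replicate 2.

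**Figure D2:**
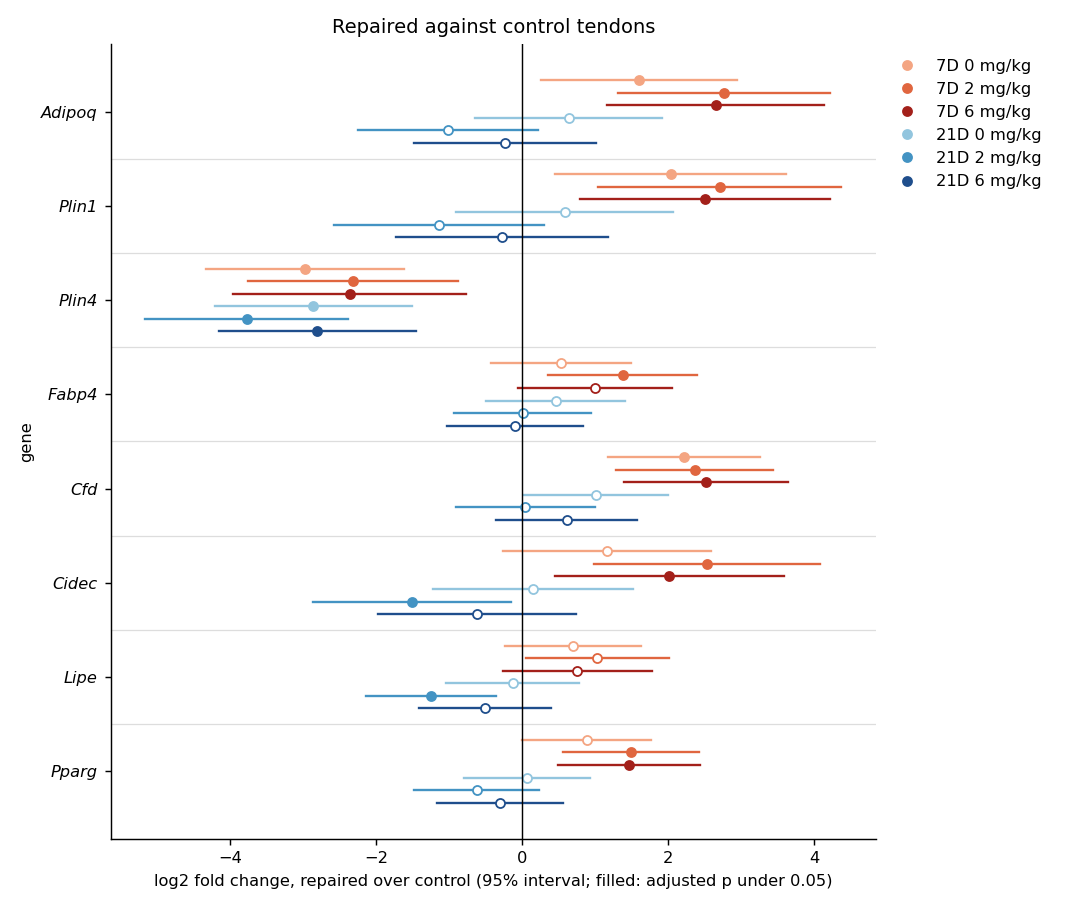
Log2 fold change of each fat cell gene in each repaired group over control tendons (horizontal) with its 95% interval, by gene (vertical) and group (colour). Filled points passed an adjusted p under 0.05. Plin4 lies left of 0 in all 6 groups (-3.77 to -2.32), and the filled points right of 0 all belong to 7D groups.

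Plin4 was lower than in control tendons in every repaired group, while the other members called at 7D were higher. Its protein coats small droplets in white fat cells and is also made in skeletal muscle. It was at 198, 149 and 134 CPM in control tendons and at 19.4, 24.2, 29.1, 10.8 and 18.9 CPM at 7D 0 mg/kg. It was at 2.73, 21.9, 63.1 and 41.4 CPM at 7D 2 mg/kg and at 53.8, 17.8 and 21.4 CPM at 7D 6 mg/kg. It was at 28.9, 4.53, 23.5, 16.0 and 37.4 CPM at 21D 0 mg/kg, at 18.6, 10.7, 6.31, 8.76 and 14.4 CPM at 21D 2 mg/kg, and at 25.6, 43.7, 11.0, 28.5 and 5.59 CPM at 21D 6 mg/kg. The highest repaired tendon, at 63.1 CPM, was below the lowest control tendon, at 134 CPM. The log2 fold change against control tendons was -2.97 (SE 0.66), -2.32 (SE 0.70) and -2.36 (SE 0.77) at 7D 0, 2 and 6 mg/kg, with adjusted p of 0.000292, 0.00504 and 0.00931.

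Plin4 had more counts than Plin1 in all 3 control libraries and fewer in all 12 libraries at 7D, while at 21D it had more in 6 of 15. The ratio of their counts was chosen after its values were seen and was not tested between groups. Control tendons held 14.0, 3.83 and 7.06 counts of Plin4 for each count of Plin1. The 12 tendons at 7D held 0.164 to 0.261, and the 15 tendons at 21D held 0.365 to 3.30. The ratio comes from counts in 1 library and does not depend on the scaling between libraries.

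**Figure D3:**
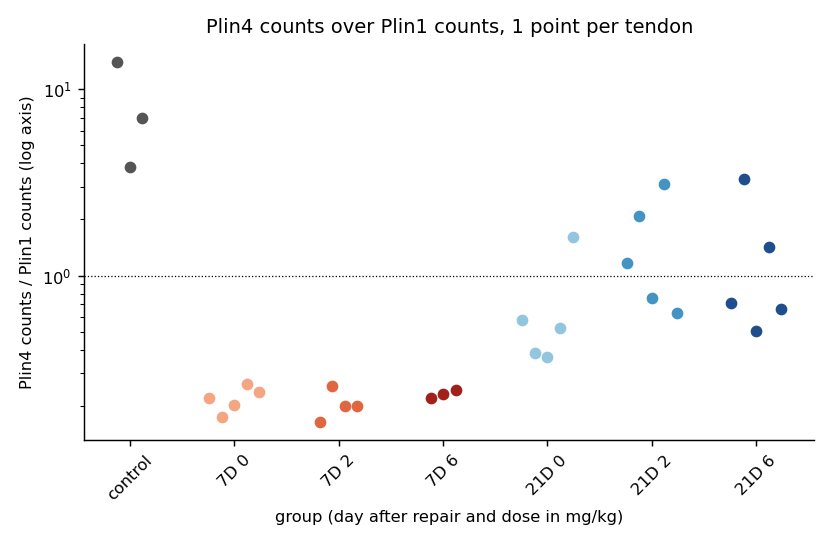
Counts of Plin4 divided by counts of Plin1 in the same library (vertical, log axis) in each tendon, by group (horizontal). The dotted line marks equal counts. The 12 points at 7D sit between 0.164 and 0.261, the 3 control points between 3.83 and 14.0.

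Among the tendons at 21D the muscle share moved with Plin4. The relation was not tested at 7D, where treated tendons had muscle shares below those at 0 mg/kg. Mean Plin4 at 7D was 20.5 CPM at 0 mg/kg, 32.3 CPM at 2 mg/kg and 31.0 CPM at 6 mg/kg. Over the 15 tendons at 21D, log2 CPM of Plin4 had a Pearson r of 0.88 with the log2 share of counts on the skeletal muscle list (permutation p = 1e-05, adjusted p = 9e-05 over 9 relations) and a Spearman rho of 0.93 (permutation p = 1e-05, adjusted p = 9e-05), each p being the smallest that 100000 permutations can give. The r was 0.93 without the 2 tendons farthest from the median share. The 3 dose groups hold 5 tendons each, too few for a correlation within a dose. The other 7 members had r between -0.40 and 0.40 with that share (lowest adjusted p = 0.282, permutation test). Their Spearman rho ran from -0.36 for Fabp4 to 0.55 for Lipe (permutation p = 0.0368, adjusted p = 0.166, for Lipe). Without the 2 tendons farthest from the median share, their r ran from -0.06 for Fabp4 to 0.51 for Plin1. The Plin4 to Plin1 ratio had an r of 0.45 (p = 0.0888, adjusted p = 0.282, permutation test). These relations were added after the values were seen.

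With the log2 muscle share as a covariate in the model, the Plin4 call against control tendons was lost in the 7D groups. The log2 fold change became -0.75 (SE 0.81, adjusted p = 0.460) at 0 mg/kg, 1.67 (SE 1.23, adjusted p = 0.376) at 2 mg/kg and 1.64 (SE 1.25, adjusted p = 0.383) at 6 mg/kg. In the 21D groups it stayed past the threshold at -1.76, -2.50 and -1.82 (adjusted p = 0.0251, 0.00162 and 0.0176). In that model the rises of Plin1 and Cfd at 7D 0 mg/kg remained (log2 fold change 3.10 and 2.54, adjusted p = 0.0184 and 0.00418), and Adipoq had 2.08 (adjusted p = 0.0645). No member was called at 7D 2 or 6 mg/kg, where Adipoq had 3.65 (SE 1.42, adjusted p = 0.0879) and 3.54 (SE 1.44, adjusted p = 0.0990). Without the covariate the SE of Adipoq in these comparisons was 0.71 and 0.72. The share of all genes called in the covariate model is not given here, so the lost calls are not read as particular to the members. The muscle shares of control tendons do not overlap those of any repaired group. The muscle share and the group therefore cannot be told apart in these comparisons, at 7D or at 21D.

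**Figure D4:**
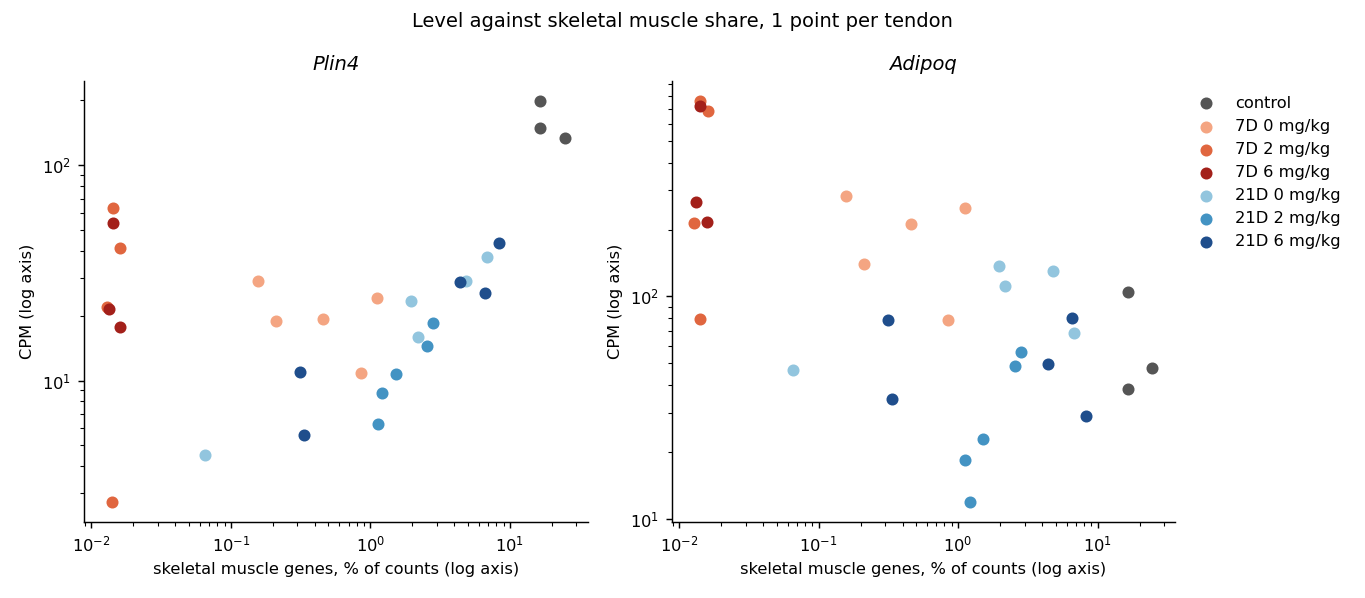
CPM of Plin4 (left) and Adipoq (right) on the vertical log axis against the share of counts on the skeletal muscle list (horizontal, log axis, percent), 1 point per tendon and 1 colour per group. Among 21D tendons Plin4 rises with the muscle share (r = 0.88 for log2 values), while Adipoq spreads between 11.9 and 138 CPM.

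At 21 days no member passed the test as higher than in control tendons. At 2 mg/kg Plin4, Cidec and Lipe were lower, a count near the share of all genes. Adipoq was at 131, 46.8, 138, 112 and 68.5 CPM at 21D 0 mg/kg, at 56.0, 22.7, 18.3, 11.9 and 48.8 CPM at 21D 2 mg/kg, and at 80.3, 28.9, 78.2, 49.4 and 34.5 CPM at 21D 6 mg/kg. These ranges overlap that of the control tendons. Plin4 was the 1 member that fell at 0 mg/kg (log2 fold change -2.86, SE 0.66, adjusted p = 0.000525), where 33.7% of all genes fell. It was also the 1 member that fell at 6 mg/kg (-2.81, SE 0.66, adjusted p = 0.000658), where 33.3% did. At 2 mg/kg, 3 members fell, near the 35.3% of all genes that did, and the median of the members was -1.07. Plin4 fell by 3.77 on the log2 scale (adjusted p = 2.76e-05), Lipe by 1.25 (SE 0.43, adjusted p = 0.0136) and Cidec by 1.51 (SE 0.66, adjusted p = 0.0445). The Lipe call was lost without control replicate 3 or 4 (highest adjusted p = 0.0713). It was also lost with library size alone in place of TMM scaling (adjusted p = 0.144) and with the muscle share as a covariate (adjusted p = 0.173).

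Cidec was at 11.8, 4.28, 3.50, 1.62 and 9.83 CPM in those 21D 2 mg/kg tendons, and 2 of the 5 overlapped the control range. Its call was lost without control replicate 3, without 21D 2 mg/kg replicate 2, 3 or 4, with no filter on low counts (adjusted p = 0.0526) and with the muscle share as a covariate (adjusted p = 0.278). The number of members called at 21D 2 mg/kg fell from 3 to 1 without control replicate 3. At 21D 0 mg/kg, Cfd had a log2 fold change of 1.01 (95% interval 0.03 to 1.99, adjusted p = 0.0661), and it was called by DESeq2 (adjusted p = 0.0428), and without control replicate 3 or 21D 0 mg/kg replicate 2 or 5, each of which raised the number called from 1 to 2.

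From 7 to 21 days most members fell in treated tendons. At 2 mg/kg, 7 of the 8 members fell, where 5.98% of all genes tested did, and the median log2 fold change was -2.30 against 0.00 for all genes. Cidec fell by 4.04 on the log2 scale (SE 0.66, adjusted p = 0.000313), from 102 ± 81.8 (SD, n = 4) to 6.22 ± 4.39 CPM (SD, n = 5). The log2 fold change was -3.84 for Plin1 (SE 0.70, adjusted p = 0.000691) and -3.78 for Adipoq (SE 0.60, adjusted p = 0.000269). The 21D tendons were all below the 7D tendons for Adipoq, Cfd, Cidec and Pparg, and some reached the level of 7D replicate 2 for Plin1, Lipe and Fabp4. The share of all genes without overlap was not counted. Lipe fell by 2.28 (SE 0.41), Cfd by 2.32 (SE 0.43) and Pparg by 2.12 (SE 0.38), with adjusted p from 0.000692 to 0.000898. Fabp4 fell by 1.37 (SE 0.42, adjusted p = 0.0307), from 447, 505, 1057 and 1029.7 CPM to 194, 475, 119, 481 and 202 CPM. The Fabp4 call was lost in 5 of the 9 fits that leave out 1 tendon (7D replicate 4 or 5, or 21D replicate 1, 3 or 5, highest adjusted p = 0.109) and in a fit of only the groups compared (adjusted p = 0.0631).

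At 6 mg/kg, 5 members fell, where 4.55% of all genes did, with a median of -1.84. These were Adipoq (log2 fold change -2.88, SE 0.61, adjusted p = 0.00283), Plin1 (-2.78), Cidec (-2.63), Cfd (-1.91) and Pparg (-1.76), and each had every 21D tendon below every 7D tendon. Lipe and Fabp4 did not overlap either and did not pass (log2 fold change -1.26 and -1.09, adjusted p = 0.0521 and 0.108). How many of all genes separated in this way was not counted here either. At 0 mg/kg no member passed, where 5.35% of all genes did, and the median was -0.89. The unadjusted p was under 0.05 for 4 of the 8 members and for 2981 of the 12558 genes tested. DESeq2 called 1 member, Cfd (adjusted p = 0.0254), which had a log2 fold change of -1.21 (SE 0.40, adjusted p = 0.0728) in edgeR. The share of all genes that DESeq2 called is not given here.

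A fall past the threshold at 2 and 6 mg/kg and not at 0 mg/kg is not by itself a difference between doses. The test of that difference, the interaction of dose and time, called no member, where 0.390% of all genes were called, and Adipoq came nearest (F = 6.88, adjusted p = 0.281). DESeq2 called 1 member in its test of the interaction, Adipoq (adjusted p = 0.0439). Over the alternatives other than leaving out 1 tendon, the adjusted p of Adipoq ran from 0.0439 to 0.808. Without the 3 libraries under 20000000 counts the adjusted p of Adipoq was 0.808, and the number of members that fell from 7 to 21 days at 2 mg/kg went from 7 to 2, Adipoq and Cidec. At 6 mg/kg the number went from 5 to 2 without 7D replicate 1, and to 0 with the muscle share as a covariate. In that model the log2 fold changes at 6 mg/kg were larger with wider errors for the 5 members called without the covariate. Among them were Adipoq at -3.47 (SE 1.08, adjusted p = 0.0991), Plin1 at -4.16 (SE 1.25, adjusted p = 0.0879) and Cidec at -3.81 (SE 1.18, adjusted p = 0.0991). Fabp4 went the other way, from -1.09 to -0.36 (adjusted p = 0.840). At 2 mg/kg the covariate model called 7 members, with -4.39 for Adipoq (adjusted p = 0.00991) and -5.24 for Cidec (adjusted p = 0.00599), and with Plin4 (-4.18, adjusted p = 0.00589) in place of Fabp4 (-0.63, adjusted p = 0.533). At 2 and at 6 mg/kg the muscle shares of 7D and 21D tendons do not overlap, so muscle share and time cannot be told apart. The share of all genes called in these alternative fits is not given here, so their counts are not read as particular to the members.

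**Figure D5:**
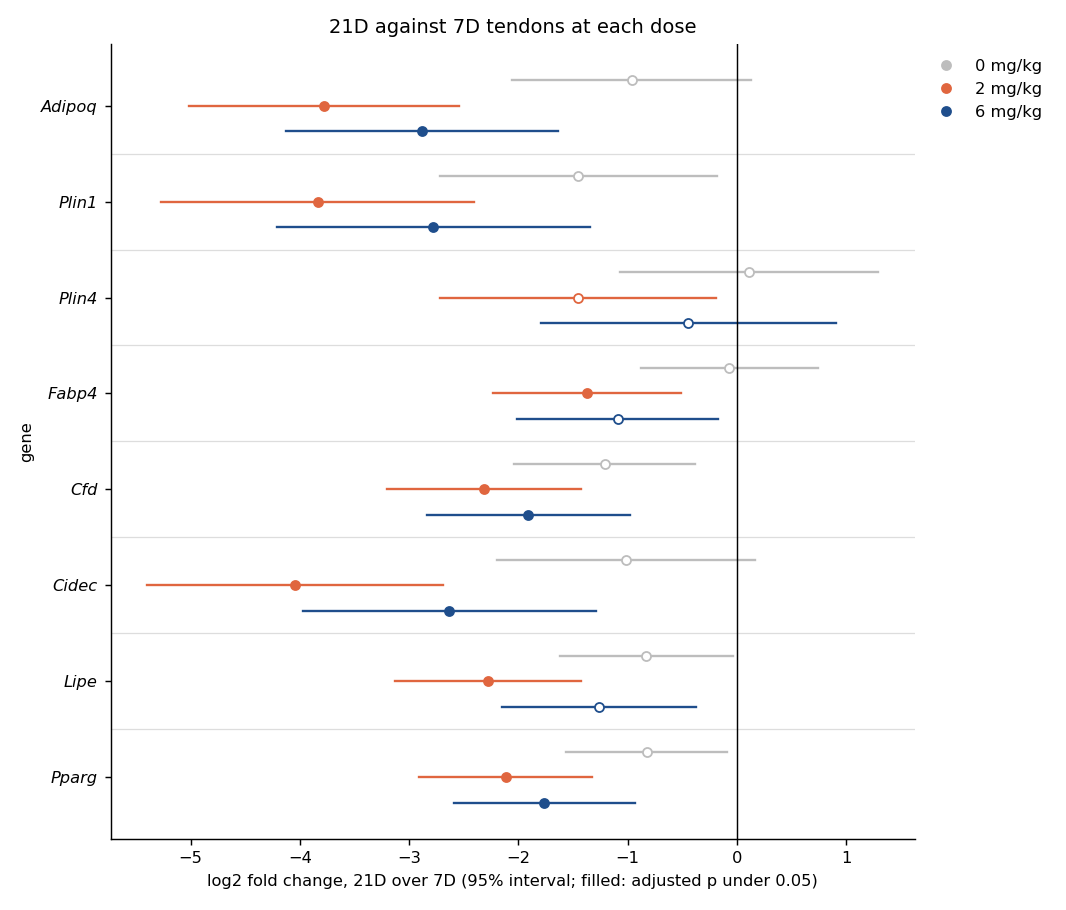
Log2 fold change of each fat cell gene at 21D over 7D (horizontal) with its 95% interval, by gene (vertical) and dose (colour). Filled points passed an adjusted p under 0.05. The 7 filled points at 2 mg/kg lie between -4.04 and -1.37, the 5 at 6 mg/kg between -2.88 and -1.76, and no point at 0 mg/kg is filled.

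Between doses at 1 time point no member passed the test. At 7D, 2.36% of all genes were called between 2 and 0 mg/kg, 0.390% between 6 and 0 mg/kg, 0% between 6 and 2 mg/kg and 2.05% across the 3 doses. For 2 against 0 mg/kg at 7D, the log2 difference was 1.17 for Adipoq (95% interval 0.02 to 2.31, adjusted p = 0.315), 1.37 for Cidec (0.13 to 2.61, adjusted p = 0.263) and 0.14 for Cfd (-0.72 to 1.01, adjusted p = 0.912). The tendons of the 2 doses overlapped for all 8 members. Without the 3 libraries under 20000000 counts, the log2 difference of Adipoq was -0.39. With the muscle share as a covariate, 1 member, Plin4, was called between 2 and 0 mg/kg at 7D (log2 difference 2.42, SE 0.70, adjusted p = 0.0308). The muscle shares at these doses do not overlap at 7D, so the muscle share and the dose cannot be told apart there.

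At 21D, 0% of genes were called for 2 against 0, 6 against 0 and 6 against 2 mg/kg and across doses by edgeR at adjusted p under 0.05, and 1078, 810, 1751 and 1366 genes had an unadjusted p under 0.05. All 8 members had a negative log2 difference between 2 and 0 mg/kg at 21D, from -0.45 for Fabp4 to -1.72 for Plin1, with a median of -1.04 against -0.01 for all genes. Adipoq had -1.65 (95% interval -2.77 to -0.54, adjusted p = 0.425), and 5 members had an unadjusted p under 0.05. The adjusted p of the 8 members ran from 0.425 to 0.793. For 6 against 0 mg/kg at 21D, Adipoq had -0.87 (-1.96 to 0.22, adjusted p = 0.809).

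Ranked by group mean, Adipoq, Plin1, Cidec and Pparg had the same order, which ran down from 7D 2 mg/kg through 7D 6 mg/kg, 7D 0 mg/kg, 21D 0 mg/kg, control and 21D 6 mg/kg to 21D 2 mg/kg. For each of these 4 genes none of the 6 neighbouring pairs differed past the threshold. Fabp4, Cfd and Lipe also had the 3 groups at 7D first and no neighbouring pair called. In Plin4 the control group led, and its step to the next group, 7D 2 mg/kg, was called.

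Single tendons of 1 group differed widely, and members moved together among them. At 7D 2 mg/kg the highest tendon held 9.55 times the Adipoq of the lowest, 19.1 times the Plin1 and 23.1 times the Plin4, but 2.36 times the Fabp4. Across the 12 tendons at 7D, log2 CPM of the other 7 members had a Pearson r of 0.88 to 0.99 with that of Adipoq. For Plin4 at 7D, r was 0.90 (permutation p = 1e-05, adjusted p = 2.33e-05) and the Spearman rho was 0.92 (permutation p = 8e-05, adjusted p = 0.000187), with r = 0.84 without the 2 tendons farthest from the median of Adipoq. Across the 15 tendons at 21D, Plin1 and Cidec kept an r of 0.95 and 0.97 with Adipoq. Plin4 had 0.47 (permutation p = 0.0812, adjusted p = 0.0874) and Fabp4 0.03 (permutation p = 0.909, adjusted p = 0.909). That the r differed between 7D and 21D was not tested, and 14 relations were computed. Tendons of different doses are pooled in these values.

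The genes most like the mean of Adipoq, Plin1 and Cidec over the 30 tendons were Retn (Pearson r 0.98), Lep (0.98), Sncg (0.98), Bche (0.97), LOC691485 (0.97), Tmem179 (0.97), Tshr (0.96) and Slc7a10 (0.96). Retn encodes resistin and Lep leptin, hormones of white fat in rodents, and Slc7a10 encodes an amino acid transporter found on white fat cells. Over the 27 repaired tendons 7 of these genes were again among the 8 most like, with Rbp4 in place of Tmem179. Among the genes ranked with the members included, Cidec, Adipoq and Plin1, which make up the mean, ranked 1 to 3 over the 30 tendons, Cfd ranked 24, Lipe 27 and Pparg 34. Fabp4 ranked 443 with an r of 0.57 and Plin4 ranked 1485 with an r of 0.38. Over the 27 repaired tendons Plin4 ranked 436 with an r of 0.65, ahead of Fabp4, which ranked 682 with an r of 0.59. These correlations are a description over tendons that share depth and group, with no test.

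Sequences upstream of the start are shown for Adipoq, Plin1 and Cidec, whose mean was the reference for likeness, and for Plin4, which was lower than in control tendons where those 3 were higher or not called at 7D. A RefSeq table of the GRCr8 assembly held 6 of the 8 members, and each line gives the 250 bases before the start of transcription, written 5′ to 3′ on the gene's strand. All 4 genes lie on the minus strand, at chr11:91240170-91240419 for Adipoq, chr1:143086149-143086398 for Plin1, chr4:148137116-148137365 for Cidec and chr9:1025250-1025499 for the first of 5 Plin4 entries. Capitals mark a match to TTGCNNAA, the core bound by C/EBP factors, which act with PPARG in fat cells.
Adipoq: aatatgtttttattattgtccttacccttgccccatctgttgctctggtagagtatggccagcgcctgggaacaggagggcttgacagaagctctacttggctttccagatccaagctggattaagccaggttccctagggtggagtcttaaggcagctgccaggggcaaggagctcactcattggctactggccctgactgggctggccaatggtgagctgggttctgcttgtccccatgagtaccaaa
Plin1: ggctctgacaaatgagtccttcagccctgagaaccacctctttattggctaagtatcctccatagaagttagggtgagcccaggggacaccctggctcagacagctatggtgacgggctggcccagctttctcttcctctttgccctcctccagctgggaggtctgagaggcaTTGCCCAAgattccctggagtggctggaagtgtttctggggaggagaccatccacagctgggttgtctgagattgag
Cidec: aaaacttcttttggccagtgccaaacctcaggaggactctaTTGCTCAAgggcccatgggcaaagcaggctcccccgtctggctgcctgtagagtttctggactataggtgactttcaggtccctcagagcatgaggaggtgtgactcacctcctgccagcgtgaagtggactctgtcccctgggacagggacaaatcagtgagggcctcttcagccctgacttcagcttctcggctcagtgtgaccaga
Plin4: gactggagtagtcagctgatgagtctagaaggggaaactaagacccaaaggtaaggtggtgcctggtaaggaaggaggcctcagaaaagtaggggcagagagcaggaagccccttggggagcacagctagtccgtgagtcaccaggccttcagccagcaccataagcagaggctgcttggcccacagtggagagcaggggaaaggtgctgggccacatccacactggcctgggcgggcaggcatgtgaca
The C/EBP core was at 77 to 70 bases before the start of Plin1 and at 209 to 202 bases before that of Cidec, and in 1 of 2 entries of Pparg. It was in 9.22% of the 33469 promoters of the table, searched on both strands. Neither AGGTCA, the hexamer bound by nuclear receptors, which is in 14.1% of promoters, nor AGGTCANAGGTCA, a pair of these hexamers 1 base apart as bound by PPARG with its partner RXR, with up to 2 mismatches, in 3.15%, was found in the entries of the 6 members. A match is a description of letters and says nothing of binding.

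Other genes of fat cells were read from 5 lists, 8 secreted factors, 12 transcription regulators, 18 genes of triglyceride synthesis, 16 of lipolysis and lipid droplets, and 9 of brown and beige fat. Their counts are read beside the shares of all genes tested, of which 35.8% rose and 35.6% fell at 7D 0 mg/kg against control tendons, and 5.98% fell and 890 of 12558 rose from 7 to 21 days at 2 mg/kg. Of the 8 secreted factors tested, 5 rose and 0 fell at 7D 0 mg/kg. Lep was 4.59-fold higher (26.6 ± 12.5 against 5.75 ± 2.05 CPM, adjusted p = 0.0411), and Retn had a log2 fold change of 1.52 (adjusted p = 0.0498). Apoe, a lipoprotein gene with high levels in macrophages, rose from 697 ± 387 to 8966 ± 3029 CPM (log2 fold change 3.69, adjusted p = 1.15e-06). Lpl, lipoprotein lipase, had 0.74 and did not pass (adjusted p = 0.245). From 7 to 21 days at 2 mg/kg, 6 of the 8 fell (5.98% of all genes did), Lep by 4.94 on the log2 scale (adjusted p = 0.000642) and Retn by 3.61 (adjusted p = 0.000525), and Apoe had -0.27 (adjusted p = 0.702).

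Of 11 transcription regulators tested, 3 rose and 3 fell at 7D 0 mg/kg, shares not above the 35.8 and 35.6% of all genes. Cebpa, which works with Pparg in fat cells, rose from 14.8 ± 3.23 to 73.2 ± 10.3 CPM (log2 fold change 2.30, adjusted p = 3.22e-06), and Cebpd, an early regulator of fat cell formation, rose by 1.40 (adjusted p = 0.000128). Klf15 and Klf5 fell by 3.05 and 2.94 (adjusted p = 2.23e-07 and 2.40e-09). From 7 to 21 days at 2 mg/kg, 2 of the 11 fell and 0 rose, and Cebpa had -0.57 (adjusted p = 0.194).

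Of 16 genes of triglyceride synthesis tested, 5 rose and 7 fell at 7D 0 mg/kg, near the 35.8 and 35.6% of all genes. The desaturase gene Scd and the fatty acid synthase gene Fasn rose by 2.34 (SE 0.92, adjusted p = 0.0256) and 2.20 (SE 0.54, adjusted p = 0.000754). Slc2a4, the insulin-responsive glucose transporter of fat and muscle, fell by 5.13 (adjusted p = 2.11e-05), and Gpd1, which makes the glycerol backbone, fell by 3.31 (adjusted p = 0.000986). Between 7 and 21 days at 2 mg/kg, 9 of the 16 fell (5.98% of all genes did) and 0 rose, among them Scd (log2 fold change -3.80, adjusted p = 0.00282).

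Of 13 genes of lipolysis and lipid droplets tested, 4 rose and 3 fell at 7D 0 mg/kg, shares not above the 35.8 and 35.6% of all genes. Pde3b and Plin3 rose by 1.08 and 1.04 (adjusted p = 0.000872 and 1.42e-06), Plin5, a perilipin of muscle and heart, fell by 4.50 (adjusted p = 0.000102), and Fitm2 fell by 1.98 (adjusted p = 1.33e-06). Plin2, a droplet coat gene of many cell types, had 0.52 and did not pass (adjusted p = 0.0600). From 7 to 21 days at 2 mg/kg, 6 of the 13 fell (5.98% of all genes did) and 0 rose. Of the 4 brown and beige fat genes tested, 1 rose and 2 fell at 7D 0 mg/kg. The log2 fold change was 1.67 for Kcnk3 (adjusted p = 0.0476), -5.60 for Ppargc1a (adjusted p = 4.32e-07) and -4.69 for Cpt1b (adjusted p = 7.44e-06), and both Ppargc1a and Cpt1b are abundant in skeletal muscle. Between 7 and 21 days at 2 mg/kg, Kcnk3 had -3.09, Ppargc1a 2.65 and Cpt1b 2.34 (adjusted p = 0.00261, 0.0234 and 0.0379).

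Markers of other cells changed in the same comparisons, and their part in the results was not tested. At 7D 0 mg/kg against control tendons, where 35.8% of all genes rose and 35.6% fell, all 17 skeletal muscle genes measured fell (median log2 fold change -5.82), 11 of 12 macrophage genes rose (2.25), 3 of 8 endothelial genes rose (0.54), 5 of 7 genes of fat cell progenitors and stroma rose (1.16), 1 of 7 Schwann cell genes rose, and 1 of 10 tendon fibroblast genes rose and 5 fell. Of 3 cartilage and bone genes 2 rose, and of 4 keratinocyte genes 1 fell. The summed level of the macrophage list was 429 to 1831 CPM in control tendons and 3896 to 9872 CPM at 7D 0 mg/kg, and that of the endothelial list was 196 to 738 and 529 to 880 CPM. From 7 to 21 days at 2 mg/kg, where 7 fat cell genes and 5.98% of all genes fell and 890 of 12558 rose, all 17 muscle genes rose, 2 of 8 endothelial genes fell, 1 of 7 Schwann cell genes fell, 1 of 7 progenitor and stroma genes fell, 2 of 10 tendon fibroblast genes rose, and 0 of 12 macrophage genes passed. In that comparison the summed level of the progenitor and stroma list was 1830 to 2362 CPM at 7D and 1648 to 2294 CPM at 21D. The 7D 2 mg/kg tendon of replicate 3 stood apart in the keratinocyte list, with a summed level of 148 CPM where the other 29 tendons held 7.30 to 38.1 CPM.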

How the data were processed

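RNA of 30 rat plantaris tendons was read as single-end libraries. The authors trimmed reads with fastp, aligned them with STAR to the rn6 genome with the Ensembl annotation and deposited whole-number counts per gene, with no normalization. Samples that they removed for read quality are not analysed here, and their methods imply 1 more tendon at 7D 6 mg/kg than the 3 that the labels give. Columns of their edgeR comparisons (fold changes and p-values) were not used. Groups were taken from the sample labels, and replicates are different rats. A gene was kept where 1 or more of the 7 groups averaged 3 CPM or above. edgeR 4.0.16 in R 4.3.3 gave TMM factors, and its quasi-likelihood test was fitted in 1 model of 7 groups, with Benjamini-Hochberg adjustment over all genes kept. Scripts were tested on simulated data. Depth sets 3 counts at 0.0601 to 0.242 CPM, a floor for counting error only, and every member was above it in every tendon. Alternatives were RLE or no scaling, other filters, DESeq2 1.42.0, limma 3.58.1, a replicate block, fits limited to the groups in each comparison, a fold threshold of 1.5, a lower prior count, the muscle share as a covariate, leaving out single tendons, and, chosen after seeing the data, leaving out 3 shallow libraries. The members and lists were chosen with earlier results of these data known. Named genes were the members, up to 2 genes each way per list at 7D 0 mg/kg, a few fixed genes (Lep, Retn, Cebpa, Lpl, Plin2) and the 8 genes most like the mean of Adipoq, Plin1 and Cidec.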

Additional observations from a re-analysis of the deposited data

How the results depend on the processing

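With library size alone in place of TMM, the median log2 fold change of all genes against control tendons moved from between 0.01 and 0.05 to between 0.51 and 0.64, and the number of members called became 8 at 7D 0 mg/kg, 3 at 21D 0 mg/kg and 1 at 21D 2 mg/kg. DESeq2 called 2 members at 21D 0 mg/kg against control tendons, 1 at 21D against 7D at 0 mg/kg and 1 in the interaction. DESeq2 also called Lipe at 7D 2 mg/kg against control tendons (adjusted p = 0.0380) and at 21D against 7D at 6 mg/kg (adjusted p = 0.0239). Against control tendons, limma added Pparg at 7D 0 mg/kg (adjusted p = 0.0314) and Fabp4 at 7D 6 mg/kg (adjusted p = 0.0401). With the muscle share as a covariate, 2 members were called at 7D 0 mg/kg, 0 at 7D 2 mg/kg, 0 at 7D 6 mg/kg and 1 at 21D 2 mg/kg against control tendons, 0 at 21D against 7D at 6 mg/kg and 1 between 2 and 0 mg/kg at 7D, and Plin4 turned to 1.67 at 7D 2 mg/kg and 1.64 at 7D 6 mg/kg against control tendons; the cause was not tested. Without the 3 libraries under 20000000 counts, 2 members were called at 7D 2 mg/kg against control tendons and 2 at 21D against 7D at 2 mg/kg, with fewer samples in the fit. A fit of only the groups compared ended 5 calls of members between groups and added 2, Fabp4 and Lipe at 21D against 7D at 6 mg/kg; the ended call not given above is Cidec at 21D 2 mg/kg against control tendons (adjusted p = 0.0734). Leaving out 1 tendon gave 2 to 5 members at 7D 0 mg/kg, 5 to 8 at 7D 2 mg/kg, 3 to 6 at 7D 6 mg/kg, 1 to 2 at 21D 0 mg/kg and 1 to 4 at 21D 2 mg/kg against control tendons, and 0 to 1, 6 to 8 and 2 to 6 at 21D against 7D at 0, 2 and 6 mg/kg. RLE scaling changed none of the 144 calls of members between groups. The shares of all genes called in these alternatives are not given here, so the counts are not read as particular to the members.

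Replicate numbers name different rats, and over 76 pairs with the same number the deviations had a median correlation of 0.007 (-0.70 to 0.68), so the numbers were not taken to pair the tendons. With the replicate block, 4 members were called at 7D 0 mg/kg against control tendons, and Cidec at 7D 6 mg/kg was lost (log2 fold change 1.66, adjusted p = 0.0567).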
